A study of Homo sapiens with 24 samples.

Results

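The 6 genes described here, TGFBR3, PIAS3, ATP7A, NFIX, RAB30 and AKAP12, were selected on their levels at 0 h, before transcription was stopped, where each transcript was lowered mainly by a single IGF2BP siRNA. They are 6 of the 58676 gene rows analysed, and all 6 were among the 13136 genes with enough reads to test. TGFBR3, PIAS3 and ATP7A were named for siIGF2BP1, NFIX and RAB30 for siIGF2BP2, and AKAP12 for siIGF2BP3. The cells were HepG2, an established line from a human liver cancer. They received a non-targeting siRNA (siControl) or an siRNA to 1 of the family members IGF2BP1, IGF2BP2 and IGF2BP3. Actinomycin D (5 µg/ml) was present for 0, 3 or 6 h before collection, which gave 12 groups of 2 libraries. All groups shared the transfection procedure and the time of 48 h between re-seeding and treatment.

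IGF2BP1, IGF2BP2 and IGF2BP3 are related RNA-binding proteins that bind mRNAs through KH domains, often in the 3′ untranslated region (3′ UTR), and are known for changing how long mRNAs last. Actinomycin D blocks RNA polymerases, so that a transcript measured at 3 h and 6 h was mostly made before the drug was added. A transcript lowered by a knockdown at 0 h can therefore be followed along 2 lines: whether the difference from siControl persisted at 3 h and 6 h, and whether the transcript was lost at another pace. The 6 genes have separate roles. TGFBR3 (betaglycan) is a co-receptor that presents TGF-β to its signalling receptors. PIAS3 is a SUMO E3 ligase known as an inhibitor of STAT3. ATP7A is a copper-transporting ATPase. NFIX is a transcription factor of the nuclear factor I family. RAB30 is a small GTPase of the Golgi. AKAP12 is a scaffold that anchors protein kinase A.

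The 6 transcripts were placed on hg38 with GENCODE annotation of a later release than the one used for counting. TGFBR3 (ENSG00000069702.10) lies on chromosome 1, 91680343 to 91906335, minus strand. PIAS3 (ENSG00000131788.15) lies on chromosome 1, 145848522 to 145859836, minus strand. ATP7A (ENSG00000165240.19) lies on chromosome X, 77910690 to 78050395, plus strand. These are the genes named for siIGF2BP1. NFIX (ENSG00000008441.16) lies on chromosome 19, 12995475 to 13098796, plus strand. RAB30 (ENSG00000137502.9) lies on chromosome 11, 82973133 to 83071923, minus strand. AKAP12 (ENSG00000131016.16), the gene named for siIGF2BP3, lies on chromosome 6, 151239967 to 151358559, plus strand. Parts of PIAS3 overlap NUDT17 on the opposite strand, and ATP7A overlaps the annotated span of PGK1 on its own strand and PGAM4 on the opposite strand, so reads in shared stretches are uncertain. The same limit holds for RAB30, which overlaps the lncRNA ENSG00000254698, a processed pseudogene and SNORA70E on its own strand. It also holds for TGFBR3 (RN7SL653P), NFIX (ENSG00000279044) and AKAP12 (RN7SKP268), each with an overlap on its own strand.

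The study's text names, for IGF2BP3, a bipartite RNA word of GGCA followed after 9 to 25 bases by CA, and a second word of CGGC followed after 15 to 25 bases by CA. Preferences vary among the 3 proteins, and of the 6 genes AKAP12 alone was named for siIGF2BP3, so for the other 5 the words are not those given for the protein that was knocked down. Both were searched on the sense strand of the canonical 3′ UTR, counting each start position once. The shortest GGCA-N-CA match in each 3′ UTR is shown because it is the most compact form of the first word. Capitals mark the fixed parts and lower case the spacer. All 6 sequences were read from the GENCODE transcripts, matched the hg38 genome, and are written 5′ to 3′ in DNA letters.
TGFBR3 (chr1:91682804-91682821, minus strand): GGCAcattcattttctCA
PIAS3 (chr1:145849076-145849095, minus strand): GGCAcctctcttgaacccCA
ATP7A (chrX:78048649-78048663, plus strand): GGCAaacccatttCA
NFIX (chr19:13096909-13096924, plus strand): GGCAatgagggcaaCA
RAB30 (chr11:82980411-82980425, minus strand): GGCAtttctctagCA
AKAP12 (chr6:151356614-151356629, plus strand): GGCAtgaaataagtCA

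The spacers of these matches share no further sequence requirement, since any base was allowed in them. The first word occurred in all 6 3′ UTRs, but it also occurred in 81.8% of the 3′ UTRs of 11361 tested genes. Its number was 6 in TGFBR3, 2 in PIAS3, 5 in ATP7A, 6 in NFIX, 11 in RAB30 and 8 in AKAP12. Among 3′ UTRs within 20% of the same length, the median number was 8, 2, 10, 11, 23 and 7 in the same order, so that only AKAP12 held more than the median and PIAS3 held the median number. The second word separated NFIX from the others. It occurred 10 times in the NFIX 3′ UTR, 2 times in that of TGFBR3, once in that of ATP7A and not in those of PIAS3, RAB30 and AKAP12, while 41.1% of all 3′ UTRs held it and the median for the length of NFIX was 1. The NFIX 3′ UTR was also the most GC-rich of the 6 (59.2% GC, above 91.4% of genes), against 34.7% to 47.4% in the others. A match to these letters is a description of the sequence and no evidence of binding.

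The 3′ UTRs were mostly long. RAB30 had 9032 bases, NFIX 4147, ATP7A 3825, TGFBR3 3396 and AKAP12 2845, and PIAS3 had 924, against a median of 1324 bases over the tested genes. Thus 5 of the 6 were longer than the median, and that of RAB30 was longer than 98.5% of them. The rule did not use length, and with 6 chosen genes this is given as a description.

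Depth was 31843248 to 74252042 gene reads per library, with 50889 to 119088 reads of the ERCC spike-in RNA. The targeted transcripts followed the labels. IGF2BP1 stood at 21.1%, 16.5% and 15.9% of siControl at 0, 3 and 6 h in siIGF2BP1, IGF2BP2 at 26.2%, 20.9% and 22.1% in siIGF2BP2, and IGF2BP3 at 35.5%, 27.7% and 24.7% in siIGF2BP3. Liver markers such as ALB (at least 9607 CPM) and APOA1 (at least 1988 CPM) were high in all 24 libraries, with TTR the lowest of those read (34.7 to 85.9 CPM). Of the leukocyte genes, PTPRC and CD3E did not exceed 0.0162 and 0.0252 CPM, but CD14 reached 2.17 CPM. The endothelial genes PECAM1, CDH5 and VWF reached 1.41, 1.2 and 0.905 CPM. Of the fibroblast genes, COL1A1 and COL1A2 did not exceed 0.384 and 0.0269 CPM, but PDGFRB stood at 5.22 to 14.1 CPM. In bulk RNA, fewer cells with a transcript and less of it per cell cannot be told apart.

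Levels below are TMM-scaled CPM, read counts relative to the depth of the library, a scale that sets the bulk of genes equal between libraries. At 0 h, where the members were chosen, the fitted differences from siControl are descriptions. In siIGF2BP1, TGFBR3 differed by -1.31 on the log2 scale (40.4% of siControl), PIAS3 by -1.18 and ATP7A by -1.16. In siIGF2BP2, NFIX differed by -1.37 and RAB30 by -1.20, and in siIGF2BP3, AKAP12 differed by -0.99. Both libraries of the naming knockdown lay below all 6 other libraries of 0 h for 6 of 6 genes, a count from which nothing is read since these values chose them (11.0%, 8.9% and 8.12% of all genes tested showed this, in the order of the siRNAs).

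The genes just outside the choice were near in size. After the 3 genes of siIGF2BP1, the next in order of fall at 0 h were the lncRNA HAGLR (-1.08) and PCYT1B (-1.05), a phosphatidylcholine synthesis enzyme. In siIGF2BP2 the next after NFIX and RAB30 were SUCO (-1.08) and PDSS2 (-1.05), an enzyme of coenzyme Q synthesis. MT-ATP8 (-1.39) preceded NFIX, but it overlaps MT-ATP6 and its count is uncertain. RAB30 had a mean below the 5 CPM used to order genes. In siIGF2BP3, AKAP12 was followed by SLC51A (-0.90), which differed by -0.91 in siIGF2BP2 as well, and by AQP3 (-0.89), a water and glycerol channel.

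The genes were selected on 0 h values, with earlier results of these data known, and the 3 h and 6 h libraries were tested. These libraries are not separate transfections, since the cultures for the 3 times were re-seeded from the same transfected plate. Their RNA was mostly made before the drug, so a gene chosen as low at 0 h was likely to be low later. The tests below describe persistence and are not separate evidence for the choice. At 3 h, 6 of 6 genes were lower than siControl in the knockdown that named them, and at 6 h 5 of 6 (edgeR quasi-likelihood test, two-sided, adjusted p below 0.05). Among all genes tested, 10.2% were lower at 3 h and 10.8% at 6 h in siIGF2BP1, 9.47% and 10.4% in siIGF2BP2, and 8.62% and 9.04% in siIGF2BP3. The median difference of the 6 was -1.38 at 3 h and -1.36 at 6 h, beside medians of all genes between -0.004 and 0.008. The exception at 6 h was RAB30. Both libraries of the naming knockdown lay below all 6 others of the time for 6 of 6 genes at 3 h and 5 of 6 at 6 h, beside 12.5% and 10.4% of all genes for siIGF2BP1, 10.2% and 9.96% for siIGF2BP2, and 7.92% and 7.69% for siIGF2BP3. Scaling by ERCC moved the median difference of all genes from siControl at 6 h to 0.171, 0.274 and 0.306 in the order of the siRNAs, and the same 11 calls of the naming knockdown passed on that scale, with AKAP12 at -0.464 at 6 h. The plot of the level in every library shows these values.

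**Figure D1:**
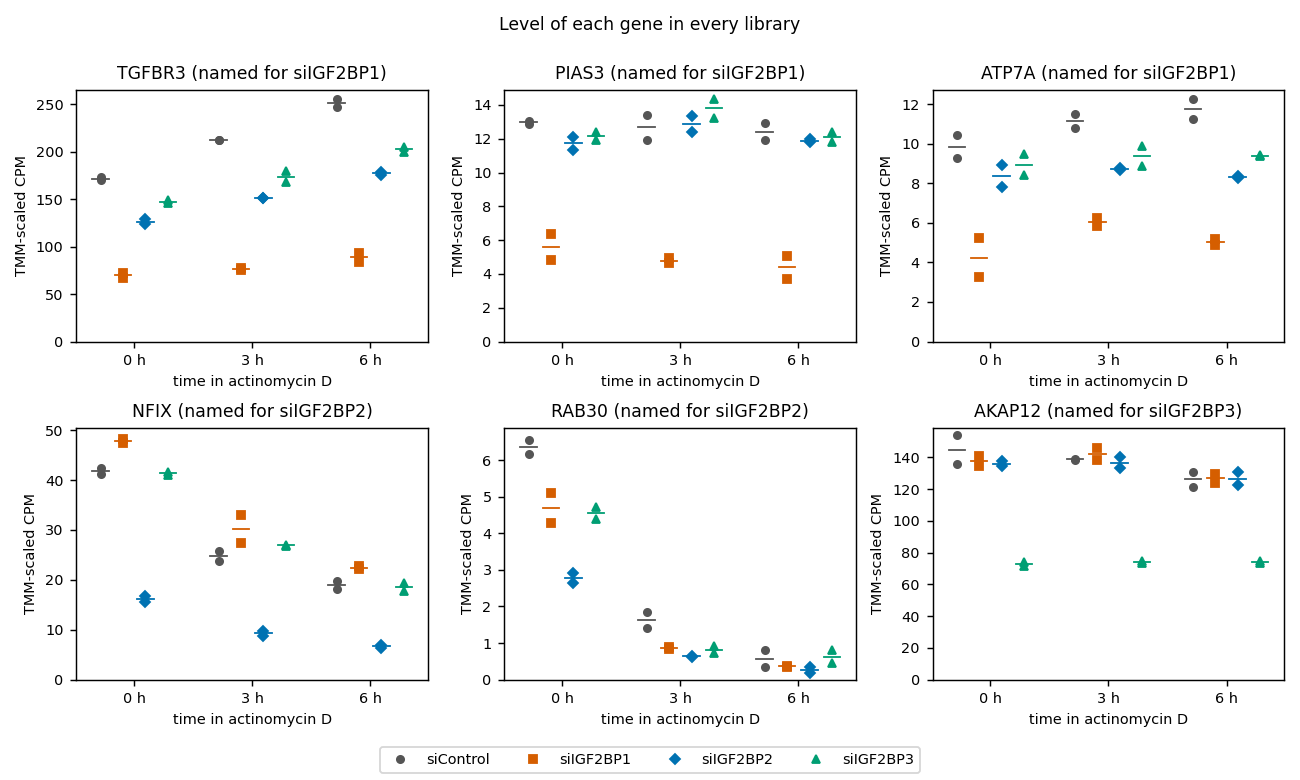
TMM-scaled CPM of each gene (vertical axis, from 0) in each library at 0, 3 and 6 h of actinomycin D, with 1 point per library and a short line at the mean of the 2 libraries. The points of the naming knockdown lie below all others at each time, except for RAB30 at 6 h, where siControl replicate 1 (0.332 CPM) and siIGF2BP1 replicate 1 (0.347 CPM) lie between the siIGF2BP2 libraries (0.35 and 0.179 CPM).

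TGFBR3 had the most reads of the genes named for siIGF2BP1. In siControl its 2 libraries were at 173 and 171 CPM at 0 h, 212 and 212 at 3 h, and 247 and 255 at 6 h. In siIGF2BP1 they were at 66.6 and 72.5 CPM at 0 h, 77.8 and 75.2 at 3 h, and 83.7 and 93.5 at 6 h. No library of siIGF2BP1 came near any of the other conditions. TGFBR3 was lower at 3 h (log2 difference -1.47, SE 0.045, edgeR adjusted p 9.03e-25) and at 6 h (-1.50, SE 0.0448, edgeR adjusted p 3.58e-25), which left 36.1% and 35.3% of siControl. Its mean CPM, a share of the library, was higher at each later time in all 4 conditions.

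PIAS3 was a low-abundance transcript with 129 to 521 reads in the siIGF2BP1 libraries. In siControl the libraries were at 13.0 and 12.9 CPM at 0 h, 11.9 and 13.4 at 3 h, and 12.9 and 11.9 at 6 h. In siIGF2BP1 they were at 6.34 and 4.85 CPM at 0 h, 4.67 and 4.92 at 3 h, and 3.73 and 5.07 at 6 h. The groups did not overlap at any time, although the siIGF2BP1 replicates differed from each other at 0 h and 6 h. The log2 difference was -1.41 at 3 h (SE 0.125, edgeR adjusted p 3.61e-11) and -1.49 at 6 h (SE 0.129, edgeR adjusted p 1.52e-11).

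ATP7A had the smallest difference of the 3 at 3 h. In siControl its libraries were at 10.4 and 9.26 CPM at 0 h, 10.8 and 11.5 at 3 h, and 11.2 and 12.3 at 6 h. In siIGF2BP1 they were at 5.21 and 3.28 CPM at 0 h, 6.24 and 5.86 at 3 h, and 5.20 and 4.88 at 6 h. The 0 h replicates of siIGF2BP1 stood apart, so the size of the 0 h difference is the least certain of the 3. The log2 difference of ATP7A was -0.88 at 3 h (SE 0.137, edgeR adjusted p 5.14e-06) and -1.22 at 6 h (SE 0.142, edgeR adjusted p 1.75e-08).

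NFIX was lowered by siIGF2BP2 to a steady fraction of siControl while the transcript itself was lost in every condition. In siControl its libraries were at 42.5 and 41.3 CPM at 0 h, 25.8 and 23.8 at 3 h, and 18.1 and 19.9 at 6 h. In siIGF2BP2 they were at 16.8 and 15.5 CPM at 0 h, 9.71 and 8.79 at 3 h, and 6.38 and 6.97 at 6 h. The 2 groups were separate at each time. NFIX differed from siControl by -1.42 on the log2 scale at 3 h (SE 0.0834, edgeR adjusted p 3.06e-16) and by -1.50 at 6 h (SE 0.0926, edgeR adjusted p 1.38e-15), to 37.3% and 35.4% of siControl.

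RAB30 was close to the limit of detection after the drug. In siControl it had 420 and 515 reads at 0 h (6.56 and 6.18 CPM), 73 and 69 at 3 h (1.84 and 1.40 CPM), and 18 and 38 at 6 h (0.332 and 0.799 CPM). In siIGF2BP2 it had 188 and 162 reads at 0 h (2.65 and 2.92 CPM), 39 and 41 at 3 h (0.653 and 0.613 CPM), and 13 and 9 at 6 h (0.350 and 0.179 CPM). The groups were separate at 0 h and 3 h and overlapped at 6 h. RAB30 fell by 1.35 on the log2 scale at 3 h (SE 0.293, edgeR adjusted p 0.000867). At 6 h its difference was -1.12 (SE 0.424, edgeR adjusted p 0.0595), which did not pass. Without siControl 6 h replicate 1 it was -1.65 (edgeR adjusted p 0.00707), without siIGF2BP2 6 h replicate 1 it was -1.62 (edgeR adjusted p 0.0482), and DESeq2 gave -1.11 (adjusted p 0.0422), all past the threshold. Over all fits without 1 library it ranged from -1.65 to -0.39.

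AKAP12 was abundant and nearly flat on the CPM scale. In siControl its libraries were at 154 and 136 CPM at 0 h, 139 and 138 at 3 h, and 131 and 122 at 6 h. In siIGF2BP3 they were at 74.3 and 71.4 CPM at 0 h, 74.9 and 73.5 at 3 h, and 73.5 and 74.8 at 6 h. All 6 siIGF2BP3 libraries lay between 71.4 and 74.9 CPM, far below every other library. AKAP12 differed by -0.90 on the log2 scale at 3 h (SE 0.05, edgeR adjusted p 1.7e-16) and by -0.77 at 6 h (SE 0.0512, edgeR adjusted p 2.78e-14), to 53.5% and 58.7% of siControl.

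**Figure D2:**
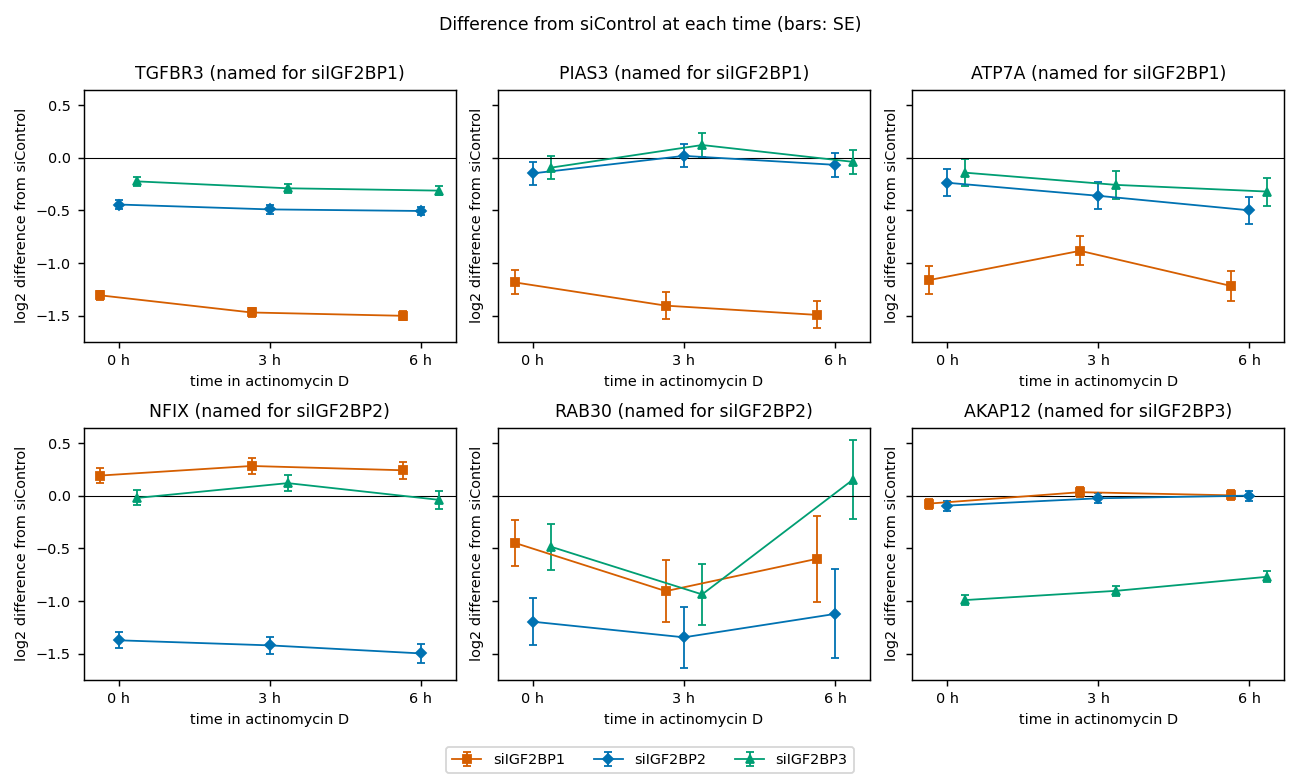
Fitted log2 difference of each knockdown from siControl (vertical axis) at 0, 3 and 6 h, with bars of 1 SE. The line of the naming knockdown lies between -0.77 and -1.50 at every time, and at 3 h and 6 h the line of another knockdown comes near it only for RAB30.

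The other knockdowns were examined next, since the genes were described as lowered mainly by a single siRNA. The 3 comparisons share the siControl libraries, so values are given side by side. Of the 12 pairs of a gene with another knockdown, 5 were lower than siControl at 3 h and 3 at 6 h, and 1 was higher at each time. PIAS3 and AKAP12 did not pass in either direction in the other knockdowns. PIAS3 differed by 0.02 and -0.07 in siIGF2BP2 and by 0.12 and -0.04 in siIGF2BP3 at 3 h and 6 h. AKAP12 differed by 0.04 and 0.01 in siIGF2BP1 and by -0.02 and 0.00 in siIGF2BP2. With ERCC scaling, AKAP12 in siIGF2BP2 at 6 h passed as higher (0.275, edgeR adjusted p 0.00478), where the median of all genes was 0.274.

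TGFBR3 was lower in all 3 knockdowns. Its log2 difference was -0.49 at 3 h and -0.50 at 6 h in siIGF2BP2 (edgeR adjusted p 1.87e-11 and 7.66e-12) and -0.29 and -0.31 in siIGF2BP3 (edgeR adjusted p 4.32e-06 and 9.81e-07). With ERCC scaling the siIGF2BP3 values moved to -0.142 and -0.003 and no longer passed. ATP7A was lower in siIGF2BP2, with -0.36 at 3 h (edgeR adjusted p 0.0484) and -0.50 at 6 h (edgeR adjusted p 0.00542), while in siIGF2BP3 it differed by -0.26 and -0.32 and did not pass. With ERCC scaling both siIGF2BP2 calls were lost (-0.301 and -0.22, edgeR adjusted p 0.232 and 0.203), and the 3 h call was also lost with library size scaling, with no filter and with a filter of 5 CPM (edgeR adjusted p 0.0851, 0.0807 and 0.0511). The ATP7A call at 3 h was lost without any 1 of its 4 libraries (-0.405 without siControl replicate 1, -0.31 without siControl replicate 2, -0.35 without siIGF2BP2 replicate 1, -0.37 without siIGF2BP2 replicate 2). At 6 h it was lost without siControl replicate 2 (-0.43) or siIGF2BP2 replicate 2 (-0.49).

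RAB30 was lower in all 3 knockdowns at 3 h, with -0.91 in siIGF2BP1 (edgeR adjusted p 0.026) and -0.94 in siIGF2BP3 (edgeR adjusted p 0.0233) beside -1.35 in siIGF2BP2. Its siIGF2BP1 libraries were at 0.832 and 0.886 CPM and its siIGF2BP3 libraries at 0.927 and 0.715 CPM, from 25 to 60 reads. The siIGF2BP1 call was lost without siControl 3 h replicate 1 (-0.71) and without siIGF2BP1 3 h replicate 1 (-0.86) or 2 (-0.95). The siIGF2BP3 call was lost without siControl 3 h replicate 1 (-0.74) and without siIGF2BP3 3 h replicate 1 (-1.17) or 2 (-0.80). With ERCC scaling both calls were lost (edgeR adjusted p 0.0546 and 0.0539), and the siIGF2BP3 call was lost in a fit of only the groups compared (edgeR adjusted p 0.0674). At 6 h the values were -0.60 and 0.16, neither of which passed. NFIX went the other way in siIGF2BP1, where it rose by 0.29 at 3 h (edgeR adjusted p 0.00633) and by 0.24 at 6 h (edgeR adjusted p 0.0238). The 3 h rise was lost without siControl replicate 2 (0.23) or siIGF2BP1 replicate 1 (0.14), and the 6 h rise without siControl replicate 1 (0.18) or siIGF2BP1 replicate 1 (0.22) or 2 (0.27). The 6 h rise was also lost with no filter and with only the groups compared (edgeR adjusted p 0.0537 and 0.0734).

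A direct comparison between knockdowns, averaged over 3 h and 6 h, needs neither siControl nor 0 h. It counts the 3 h and 6 h libraries as separate although they share a transfected plate, so its SEs do not measure the spread between transfections. The genes were chosen as lowered mainly by a single siRNA, so the counts below partly restate the choice. The naming knockdown was lower in 11 of 12 such comparisons (edgeR adjusted p below 0.05). Of all genes tested, 17.2% were lower in siIGF2BP1 than in siIGF2BP2 and 20.9% the other way round. Between siIGF2BP1 and siIGF2BP3 the shares were 15.1% and 17.6%, and between siIGF2BP2 and siIGF2BP3 they were 13.7% and 12.4%. PIAS3 was lower in siIGF2BP1 than in siIGF2BP2 (log2 difference -1.43, SE 0.0897, edgeR adjusted p 5.96e-16) and differed by -1.49 from siIGF2BP3 (SE 0.0912). TGFBR3 differed by -0.99 (SE 0.0318) and -1.19 (SE 0.032) in the same order, and ATP7A by -0.62 (SE 0.1, edgeR adjusted p 3.5e-06) and -0.76 (SE 0.102). NFIX was 1.73 higher in siIGF2BP1 than in siIGF2BP2 (SE 0.0625) and differed by -1.50 between siIGF2BP2 and siIGF2BP3 (SE 0.0636). AKAP12 was 0.86 higher in siIGF2BP1 and 0.83 higher in siIGF2BP2 than in siIGF2BP3 (SE 0.0361 and 0.0357).

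The 1 comparison that did not pass was RAB30 in siIGF2BP1 against siIGF2BP2 (0.48, SE 0.293, edgeR adjusted p 0.201). Between siIGF2BP2 and siIGF2BP3, RAB30 differed by -0.84 (SE 0.275, edgeR adjusted p 0.0198). This call was lost without siIGF2BP2 6 h replicate 2 (-0.61), siIGF2BP3 3 h replicate 1 (-0.73) or siIGF2BP3 6 h replicate 2 (-0.637). Genes were then counted that were lower than siControl at both times and lower than in both other knockdowns. Of the 6, 5 qualified, all but RAB30, a count that partly restates the choice. Among all genes tested the shares were 3.98% for siIGF2BP1, 3.63% for siIGF2BP2 and 2.06% for siIGF2BP3.

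**Figure D3:**
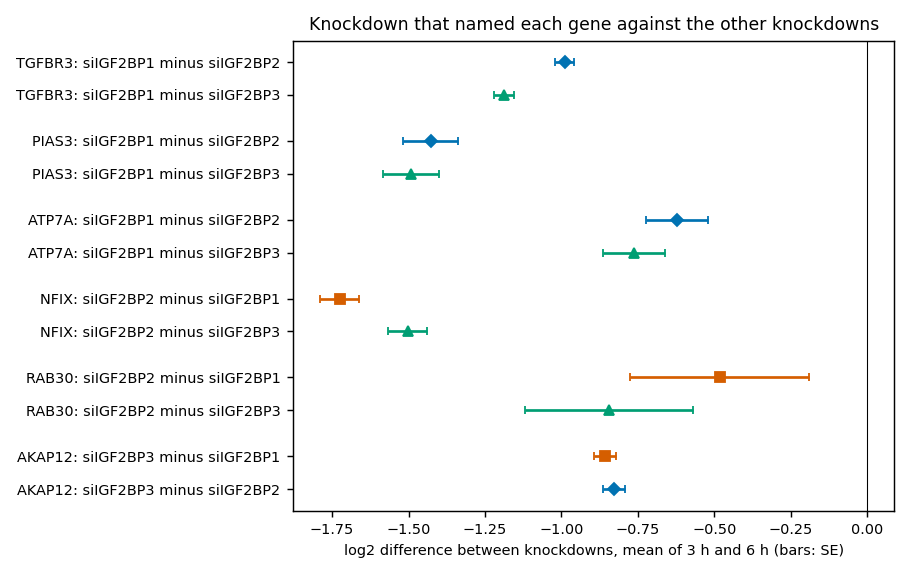
Fitted log2 difference between the naming knockdown and each other knockdown (horizontal axis), as the mean of 3 h and 6 h, with bars of 1 SE and the sign turned so that values left of 0 are lower in the naming knockdown. All 12 points lie left of 0, and the RAB30 bars are the widest (SE 0.293 and 0.275).

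Decay was followed on the ERCC scale, where libraries are set equal by spike-in reads so that a general loss of mRNA stays visible. The level left after 6 h, as a percentage of the 0 h mean of the same condition, ranged from a few percent for RAB30 to most of the transcript for TGFBR3. Since these shares use the 0 h values that chose the genes, they are given with no test. In siControl, TGFBR3 kept 90.1% ± 0.172 (SD, n = 2) at 3 h and 80.0% ± 2.92 (SD, n = 2) at 6 h, and in siIGF2BP1 84.8% ± 6.86 and 79.9% ± 5.24 (SD, n = 2). PIAS3 kept 52.5% ± 6.11 (SD, n = 2) at 6 h in siControl and 49.2% ± 10.1 (SD, n = 2) in siIGF2BP1. At 3 h PIAS3 stood at 71.3% ± 5.66 (SD, n = 2) in siControl and 65.8% ± 1.30 (SD, n = 2) in siIGF2BP1. The lowest siControl library (67.3%) was close to the highest of siIGF2BP1 (66.7%). The 0 h base of PIAS3 in siIGF2BP1 was itself spread (SD 20.4%). The share of all genes whose libraries separated at 3 h was not computed, and no difference in loss is read from these values. At 6 h the libraries of the 2 conditions overlapped for both genes.

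ATP7A in siIGF2BP1 stood at 110% ± 11.1 (SD, n = 2) of its 0 h level at 3 h and 74.3% ± 4.20 (SD, n = 2) at 6 h, while siControl stood at 82.4% ± 3.65 and 64.9% ± 0.167 (SD, n = 2). Its 0 h libraries in siIGF2BP1 lay 23.8% above and below their mean, so the base of this share is uncertain. NFIX kept 24.7% ± 0.173 (SD, n = 2) at 6 h in siControl and 26.0% ± 4.07 (SD, n = 2) in siIGF2BP2. RAB30 kept 4.76% ± 2.54 (SD, n = 2) in siControl and 5.83% ± 2.17 (SD, n = 2) in siIGF2BP2. AKAP12 kept 47.6% ± 5.35 (SD, n = 2) in siControl. With the 3 siRNAs in order it kept 57.8% ± 2.61, 58.4% ± 2.91 and 65.2% ± 2.56 (SD, n = 2). At 6 h the siControl libraries of AKAP12 stood at 43.8% and 51.4%. Those of siIGF2BP1 stood at 56.0% and 59.6%, of siIGF2BP2 at 56.3% and 60.4%, and of siIGF2BP3 at 63.4% and 67.0%. The share of all genes so ordered was not computed, so the order is not read as particular to AKAP12. On this scale the fitted loss of the median gene from 3 h to 6 h was also smaller in the knockdowns than in siControl. The log2 differences were 0.131, 0.218 and 0.164 in the order of the siRNAs. They rest on the spike-in reads of 2 libraries per group and were not tested. The 0 h libraries behind the AKAP12 siControl value were themselves spread, at 87.2% and 113% of their mean (SD 18.1%), so its base is uncertain.

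**Figure D4:**
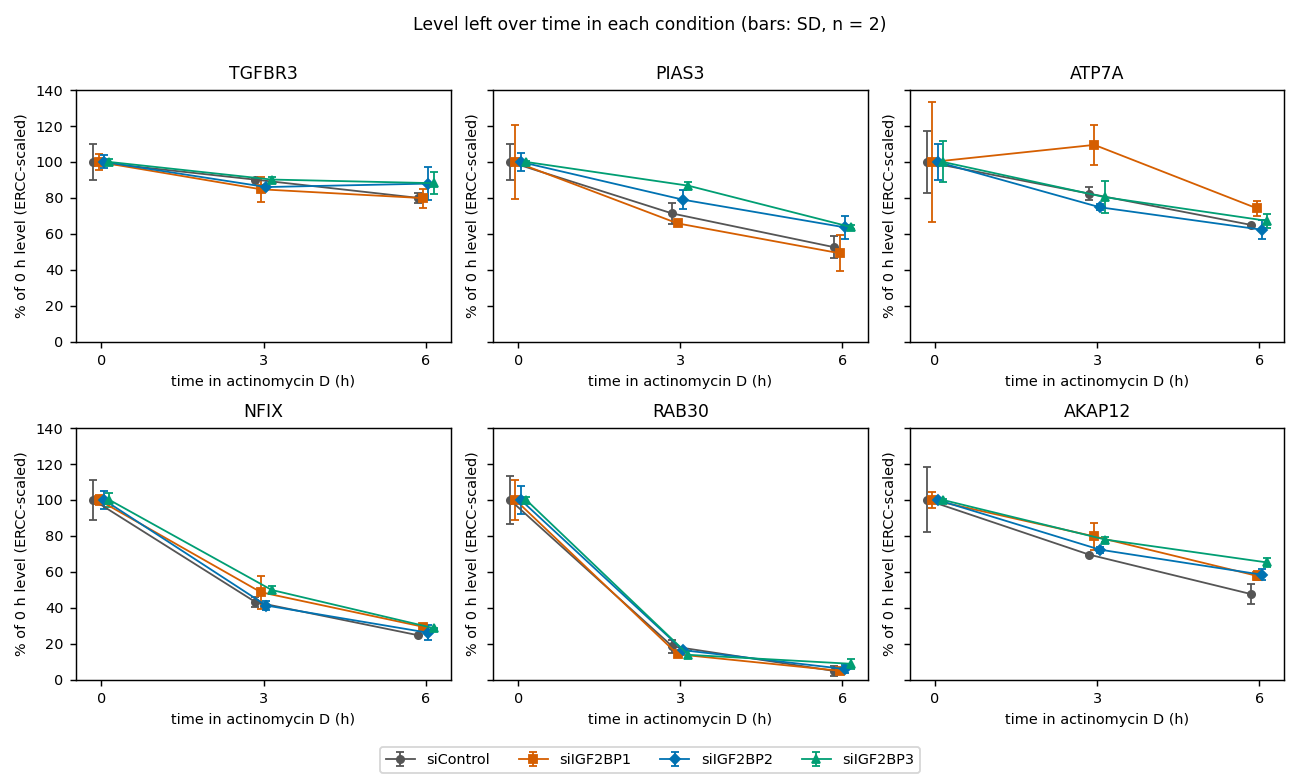
ERCC-scaled level as a percentage of the 0 h mean of the same condition (vertical axis) against time in actinomycin D (h), as the mean of 2 libraries with bars of 1 SD. The 4 conditions run close together for NFIX and RAB30, and ATP7A in siIGF2BP1 starts from widely spread 0 h libraries (SD 33.6%). The siControl mean ends lowest of the 4 conditions for AKAP12 (47.6%), as it does for NFIX and RAB30.

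Half-lifetimes from the first-order decay equation placed the genes over a wide range. In siControl they were 1.30 h for RAB30, 2.70 h for NFIX, 5.67 h for AKAP12, 6.30 h for PIAS3, 10.2 h for ATP7A and 19.3 h for TGFBR3, beside a median of 6.25 h over 11009 genes. RAB30 was shorter-lived than all but 3.12% of genes, and TGFBR3 was longer-lived than 82.6%. Genes without a net loss had no half-lifetime and were left out of these shares and of the medians, so the shares are upper values. The medians rest on different sets of genes, with 10318, 10977 and 10194 genes in the 3 knockdowns in the order of their numbers. In the knockdown that named the gene the values were 1.29 h for RAB30 and 2.67 h for NFIX (siIGF2BP2, median of all genes 6.53 h), 8.99 h for AKAP12 (siIGF2BP3, median 7.03 h), and 5.37 h for PIAS3, 15.0 h for TGFBR3 and 71.7 h for ATP7A (siIGF2BP1, median 6.94 h). The ATP7A value rests on the spread 0 h libraries and on a level at 3 h above that at 0 h. In the other 2 knockdowns ATP7A was at 7.88 h (siIGF2BP2) and 9.97 h (siIGF2BP3). AKAP12 was at 8.30 h in siIGF2BP1 and 7.01 h in siIGF2BP2, so its value was above that of siControl with every siRNA. The median of all genes was above that of siControl with every siRNA too. The AKAP12 comparison has the same limit of the spread siControl libraries at 0 h. Values far above 6 h extrapolate beyond the last time measured.

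Only the change from 3 h to 6 h can be tested apart from the 0 h values. The fit treated the 3 h and 6 h libraries as unpaired although they share a transfected plate. That link was not modelled, which limits the SEs and p-values of the change. NFIX fell in all 4 conditions, with log2 changes of -0.80 in siControl (SE 0.107, edgeR adjusted p 5.97e-13) and -0.73, -0.66 and -0.80 in the 3 knockdowns in the order of their numbers. AKAP12 also fell in all 4, with -0.55 (SE 0.0855, edgeR adjusted p 8.52e-10), -0.46, -0.31 and -0.26 in the same order. RAB30 fell in siControl (-1.95, SE 0.318, edgeR adjusted p 4.63e-09), siIGF2BP1 (-1.52) and siIGF2BP2 (-1.50), and its -0.69 in siIGF2BP3 did not pass (edgeR adjusted p 0.122). Of the 6 genes, 5 fell in siControl, 5 with siIGF2BP1, 3 with siIGF2BP2 and 3 with siIGF2BP3, where 64.9%, 45.9%, 36.9% and 41.6% of all genes tested fell. With TMM scaling the AKAP12 calls in siIGF2BP2 (-0.11, edgeR adjusted p 0.0536) and siIGF2BP3 (-0.003, edgeR adjusted p 0.972) were lost, and that in siIGF2BP2 was lost with only the groups compared (edgeR adjusted p 0.0621). The AKAP12 call in siIGF2BP3 was lost without siIGF2BP3 3 h replicate 2 (-0.24) or 6 h replicate 2 (-0.22), and the RAB30 call in siIGF2BP2 without siIGF2BP2 6 h replicate 2 (-1.14).

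TGFBR3 did not pass in any condition, with changes of -0.17 in siControl and -0.09, 0.03 and -0.03 in the 3 knockdowns in order. In a fit of only the groups compared the siControl change of -0.172 passed (edgeR adjusted p 0.0205). Relative to the median of all genes it stood 0.25, 0.21, 0.24 and 0.23 higher, and with TMM scaling, which removes the general loss, it rose by 0.24, 0.21, 0.23 and 0.22. PIAS3 fell in siControl (-0.44), siIGF2BP1 (-0.42) and siIGF2BP3 (-0.44), and ATP7A in siControl (-0.34) and siIGF2BP1 (-0.56). With TMM scaling ATP7A in siControl turned to 0.07 and none of these 5 calls passed. The PIAS3 call in siControl was lost without siControl 3 h replicate 2 (-0.36) or 6 h replicate 2 (-0.33), and that in siIGF2BP1 without siIGF2BP1 3 h replicate 1 (-0.40) or 2 (-0.44) or 6 h replicate 1 (-0.23). The siIGF2BP1 call was also lost with no filter and with only the groups compared (edgeR adjusted p 0.073 and 0.057). In siIGF2BP2, PIAS3 (-0.31) passed only without 6 h replicate 2 (-0.42). The ATP7A call in siControl was lost without any 1 of the 4 siControl libraries (3 h replicate 1 -0.39 and replicate 2 -0.30, 6 h replicate 1 -0.34 and replicate 2 -0.35), and that in siIGF2BP1 without 3 h replicate 1 (-0.45). The siControl call was also lost with DESeq2 (adjusted p 0.0544) and with no filter (edgeR adjusted p 0.0741).

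The loss from 3 h to 6 h was then compared with siControl. No gene of the 6 differed in any knockdown (edgeR, 0 of 18 pairs, 3 of 18 at an unadjusted p below 0.05, and by DESeq2 0 of the 6 pairs with the naming knockdown). At the same unadjusted threshold, 932, 2999 and 1715 of the 13136 genes tested passed in siIGF2BP1, siIGF2BP2 and siIGF2BP3. The background of adjusted calls was small too, with 0.0685%, 0.19% and 0.0228% of all genes called in siIGF2BP1, siIGF2BP2 and siIGF2BP3. In siIGF2BP2 it rested on 1 library, since 3722 genes were called in place of 25 without siIGF2BP2 6 h replicate 1, with NFIX (0.292, edgeR adjusted p 0.17) and RAB30 (0.042, edgeR adjusted p 0.975) still not among them. The fitted difference of the median gene from siControl was 0.13, 0.22 and 0.16 on the log2 scale in the order of the siRNAs. These medians rest on the spike-in reads of 2 libraries per group and were not tested. In siIGF2BP2 the median was 0.31 without 6 h replicate 1 and 0.113 without 6 h replicate 2. In the naming knockdown the difference was 0.09 for TGFBR3 (SE 0.121), 0.03 for PIAS3 (SE 0.213), -0.22 for ATP7A (SE 0.22), 0.15 for NFIX (SE 0.162), 0.45 for RAB30 (SE 0.548) and 0.29 for AKAP12 (SE 0.122, edgeR adjusted p 0.366). Set against the median gene, the differences were -0.05, -0.10, -0.35, -0.07, 0.23 and 0.13. A p that misses the threshold does not show equal loss, and the standard errors leave room for differences as large as those seen in AKAP12.

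The genes that work with each member were read from short lists of partners, in the same knockdown. For TGFBR3, 9 of 11 receptors of the TGF-β and BMP family were tested in siIGF2BP1, of which 2 were lower at 0 h, 2 lower and 2 higher at 3 h, and 3 lower at 6 h. Of all genes tested in siIGF2BP1, 6.5%, 10.2% and 10.8% were lower and 9.43%, 10.6% and 13.5% higher at 0, 3 and 6 h. TGFBR2, the receptor that binds TGF-β together with TGFBR3, was lower by log2 differences of -0.47 at 0 h, -0.47 at 3 h and -0.33 at 6 h (edgeR adjusted p 2.11e-11, 7.03e-11 and 5.82e-07). The activin receptor ACVR2B was lower at the 3 times (-0.20, -0.42 and -0.37), and the BMP receptor BMPR2 was lower at 6 h (-0.22). TGFBR1 (0.25) and BMPR1A (0.24) rose at 3 h, and their values at 6 h were 0.17 and 0.22 (edgeR adjusted p 0.0699 and 0.0722).

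For PIAS3, 11 genes of SUMO conjugation and STAT3 signalling were tested in siIGF2BP1, with 1 lower at 0 h, 1 lower and 1 higher at 3 h, and none at 6 h (edgeR, 0 of 11, and 3 of 11 at an unadjusted p below 0.05). In siIGF2BP1 at 6 h, 2078 of the 13136 genes tested were lower and 2466 higher at an unadjusted p below 0.05. DESeq2 values for the genes of this PIAS3 list were not read out. UBA2, a subunit of the SUMO-activating enzyme, was lower at 0 h (-0.13) and 3 h (-0.14), and the SUMO protease SENP1 rose by 0.19 at 3 h. For ATP7A, 10 of 11 copper-handling genes were tested, with 2 lower and 2 higher at 0 h, 1 of each at 3 h, and 1 lower and 2 higher at 6 h. The copper importer SLC31A1 rose by 0.17, 0.18 and 0.16, and the related exporter ATP7B rose by 0.13 at 0 h and 0.13 at 6 h. The metallothionein MT2A was lower at the 3 times (-0.51, -0.51 and -0.46), with the limit that metallothioneins are close copies of each other.

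In siIGF2BP2, none of the other nuclear factor I genes NFIA, NFIB and NFIC passed beside NFIX at 0, 3 or 6 h (edgeR, 0 of 3 at each time, and 0, 1 and 0 of 3 at an unadjusted p below 0.05), with differences between -0.11 and 0.21. DESeq2 values for this list were not read out. Of all genes tested in siIGF2BP2, 5.47%, 9.47% and 10.4% were lower and 6.65%, 7.51% and 8.25% higher at 0, 3 and 6 h. At an unadjusted p below 0.05, 1262, 1965 and 2102 of the 13136 genes were lower and 1770, 1799 and 1793 higher. Among Golgi and secretory Rab GTPases, 10 of 11 were tested beside RAB30 and 1 was lower at each time. This was RAB1A, which acts between the endoplasmic reticulum and Golgi and was lower at the 3 times (-0.22, -0.35 and -0.37, edgeR adjusted p at 6 h 1.12e-08).

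In siIGF2BP3, 11 of 12 A-kinase anchors and protein kinase A subunits were tested beside AKAP12. At 0 h 1 was higher and 1 lower, at 3 h 2 higher and 1 lower, and at 6 h 2 higher and 2 lower. Of all genes tested in siIGF2BP3, 4.47%, 8.62% and 9.04% were lower and 4.93%, 7.4% and 9.44% higher at these times. AKAP1, the mitochondrial anchor, rose by 0.11, 0.20 and 0.27. The regulatory subunit PRKAR1A was lower at the 3 times (-0.14, -0.21 and -0.27, edgeR adjusted p at 6 h 1.46e-06), and the catalytic subunit PRKACA was lower at 6 h (-0.21). AKAP9 rose by 0.16 at 3 h and AKAP8L by 0.24 at 6 h. All of these partner differences were smaller in size than that of the member they were listed for.

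The genes most like each member were found by Pearson correlation of log2 CPM, centred within each time, over the 16 libraries of 3 h and 6 h. The libraries share conditions and controls, so this is a description. A gene chosen as low mainly in a single knockdown will resemble the target of that siRNA, so a match to the target follows from the choice. PIAS3 was most like HAGLR (r = 0.991) and the targeted IGF2BP1 itself (r = 0.989), and AKAP12 most like IGF2BP3 (r = 0.981) and the protease gene PCSK6 (r = 0.978). TGFBR3 was most like ACADSB (r = 0.989) and EIF4G3 (r = 0.988), and ATP7A most like ACADSB (r = 0.976) and TGFBR3 (r = 0.973). NFIX was most like the Rab GTPase gene RAB21 (r = 0.987) among the genes reported, and RAB30 most like RUVBL1 (r = 0.838) and ABLIM1 (r = 0.830). The changes of these neighbours could be much smaller than that of the member. PCSK6 differed by -0.23 and RUVBL1 by -0.21 at 3 h in the knockdown concerned.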

How the data were processed

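RNA from 24 HepG2 cultures (4 siRNA conditions, 3 times, 2 replicates per group, grouped from the labels) was analysed. Per the study's methods, the authors added ERCC RNA in proportion to total RNA, selected polyadenylated RNA, made stranded libraries, read single ends, trimmed with Trimmomatic 0.39 and aligned to hg38 with HISAT2 2.1.0. The deposited values are raw HTSeq read counts per GENCODE gene, not normalized. The HTSeq version and its handling of multi-mapping reads are not given in the sources used here. Rows naming no gene (13.55% to 17.06% of a library) and 45 duplicate pseudoautosomal rows were left out. Identifiers were matched to symbols for 58207 rows, and 469 had no match.

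The 13136 genes that reached 1 CPM in 2 or more libraries were fitted in edgeR 4.0.16 (R 4.3.3, quasi-likelihood, 12 group means, 12 residual degrees of freedom), with TMM scaling for levels and with ERCC totals for the change from 3 h to 6 h. Adjusted p-values are Benjamini-Hochberg over all genes tested, two-sided, with a threshold of 0.05. The rate constant was the mean of the rates from 0 to 3 h and from 0 to 6 h, and half-lifetime its reciprocal times ln2. It was given only where the rate was above 0 and the mean was at least 1 CPM. Shares and half-lifetimes were computed in Python 3.11.15. The fits were tested on simulated data. Replicate libraries differed beyond counting noise (chi-square divided by its degrees of freedom, 3.17 to 7.83). Nothing in the labels says whether replicates came from separate transfections, so p-values measure the spread between these libraries. The members, the partner lists and the tests were chosen with earlier results of these data known. Named genes are the members, the siRNA targets, partner genes that passed at 3 h or 6 h, the next 2 genes in order of fall at 0 h (mean of at least 5 CPM), and the 2 genes most like each member. In the partner list of PIAS3 and among the genes most like NFIX, 1 gene each is not reported here and was left out of the counts. MT-ATP8, NFIA, NFIB, NFIC and the liver, leukocyte, endothelial and fibroblast markers were added as context. Alternatives were DESeq2 1.42.0, other scalings and filters, fits of only the groups compared, replicate number as a block, and leaving out each library.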

Additional observations from a re-analysis of the deposited data

How the results depend on the processing

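The log2 difference of each gene from siControl in the knockdown that named it was recomputed at 3 h and 6 h in 132 alternative fits, and in 129 it kept its direction and its side of the threshold. The other 3 concerned RAB30 at 6 h (-1.12), which passed with DESeq2 (-1.113) and without siControl or siIGF2BP2 6 h replicate 1, while over all fits without 1 library it ranged from -1.648 to -0.386. RAB30 between siIGF2BP2 and siIGF2BP3 was lost in a fit of only the groups compared (-0.827) and without some libraries (-1.093 to -0.614). Over all values of the 6 genes, 38 of 900 alternatives turned the sign, and 1 of the 38 concerned a value past the threshold, ATP7A from 3 h to 6 h in siControl. These causes were not tested. RAB30 counts at 3 h and 6 h set the limit of depth.

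With ERCC scaling the genes called against siControl were 1176 (siIGF2BP1) and 898 (siIGF2BP2) at 3 h and 6493 (siIGF2BP2, against 2453) and 6996 (siIGF2BP3, against 2428) at 6 h, with 6336 of the 6493 and 6905 of the 6996 higher, and 2138 between siIGF2BP2 and siIGF2BP3. A fit of only the groups compared called 1097 for siIGF2BP3 at 6 h. Of uncalled values, ERCC scaling turned AKAP12 in siIGF2BP2 at 3 h (0.036, 0.019 with library size), PIAS3 at 6 h in siIGF2BP2 (0.21) and siIGF2BP3 (0.268) and NFIX at 6 h in siIGF2BP3 (0.272, past the threshold at an edgeR adjusted p of 0.0294). On that scale the median of all genes at 6 h was 0.274 in siIGF2BP2 and 0.306 in siIGF2BP3, above these PIAS3 and NFIX values. AKAP12 at 6 h turned in siIGF2BP1 with no filter (-0.002), a filter of 5 CPM (-0.006) or only the groups compared (-0.003), and in siIGF2BP2 with no filter (-0.005).

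With TMM scaling the change from 3 h to 6 h turned for TGFBR3 in siControl (0.243), siIGF2BP1 (0.212) and siIGF2BP3 (0.221) and for ATP7A in siControl (0.071) and siIGF2BP3 (0.007). Its difference from siControl turned for TGFBR3 (-0.031) and PIAS3 (-0.088) in siIGF2BP1 and NFIX (-0.077) in siIGF2BP2. The genes called for that difference (9, 25 and 3) were 0, 0 and 5 with TMM and 1, 3 and 0 with DESeq2, and in siIGF2BP2 5 with no filter and 6 with only the groups compared.

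Without 1 library, counts against siControl were 1774 to 1856 (siIGF2BP1, 3 h), 1286 to 1437 and 1542 to 1949 (siIGF2BP2, 3 h and 6 h) and 1169 to 1665 (siIGF2BP3, 3 h), from fits with fewer samples. For the difference in change they were 4 to 32, 2 to 3722 and 1 to 10. The 3722 came without siIGF2BP2 6 h replicate 1 and the 32 without siControl 6 h replicate 2. Uncalled values whose sign turned without 1 library ranged as follows. At 3 h in siIGF2BP1, AKAP12 lay at -0.002 to 0.073. In siIGF2BP2 it lay at -0.056 to 0.015 and PIAS3 at -0.058 to 0.108. At 6 h in siIGF2BP1, RAB30 lay at -1.122 to 0.14 and AKAP12 at -0.046 to 0.062, and in siIGF2BP2 AKAP12 lay at -0.049 to 0.059. In siIGF2BP3 at 6 h, RAB30 lay at -0.368 to 0.894, PIAS3 at -0.093 to 0.023 and NFIX at -0.105 to 0.032. For the change from 3 h to 6 h, TGFBR3 ranged from -0.08 to 0.136 in siIGF2BP2 and from -0.106 to 0.036 in siIGF2BP3. Against siControl, PIAS3 ranged from -0.203 to 0.218 in siIGF2BP1, and in siIGF2BP2 RAB30 from -0.019 to 1.119 and NFIX from -0.028 to 0.292.

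Groups share replicate numbers. Over all 66 pairs of groups, same-numbered libraries mostly did not deviate together (correlation -0.0618 to 0.277, above 0.1 in 6), and the number was not taken as a pairing. Pairs of groups with the same siRNA were not examined apart. The check therefore cannot decide whether same-numbered libraries of a condition came from the same plate. With replicate number as a block, 0 of 78 calls on the 6 genes changed, and the genes called for the difference in change in siIGF2BP3 went from 3 to 5.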
